A study of Mus musculus with 7 samples.

Results

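The genes described here are 40 mouse genes of the Fanconi anemia pathway and of DNA repair, taken by name from a fixed list out of the 21938 protein-coding genes of GENCODE M21 (mm10), and all 40 names matched a gene. Their chromatin was measured by bulk ATAC-seq, in which the Tn5 transposase cuts accessible DNA and adds sequencing adapters to it, in HPC7, a cultured mouse hematopoietic progenitor line grown with stem cell factor. The study provides 7 libraries from independent culture batches of this line, whose labels name 1 condition, so the comparisons below are between genes and between libraries. The libraries are named HPC7-1, HPC7-2 and HPC7-4 to HPC7-8 after their labels. HPC7 is 1 cell line, and its culture batches are the only replicates.

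DNA repair genes keep the genome intact as cells divide. The Fanconi anemia core complex recognizes DNA crosslinks and attaches ubiquitin to FANCD2 and FANCI, after which nucleases and homologous recombination remove the lesion. Inherited loss of this pathway leads to bone marrow failure through the loss of hematopoietic stem and progenitor cells. Excision repair removes damaged bases and bulky adducts, mismatch repair corrects replication errors, and end joining ligates broken chromosome ends.

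Each library is a list of open chromatin regions (OCRs) with a fold enrichment, the ratio of reads at the summit of the OCR to the background of that library. The lists held between 84593 and 132852 OCRs, of which 20529 to 25304 lay within 1 kb of an annotated start site. The background behind a fold enrichment of 1.00 was between 4.44 and 20.4 reads, highest in HPC7-1. Summits at the promoters of the 40 genes held between 151 and 4962 reads. All 9 hematopoietic markers examined, among them Kit, Tal1 and Lyl1, had a promoter OCR in all 7 libraries. Of 6 markers of other tissues, Alb, Myod1, Neurod1, Ins2 and Krt5 had none in any library, and Afp had a weak one in 7 libraries (fold enrichment 8.12 ± 2.08, SD, n = 7).

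The promoters with the highest accessibility among the 40 genes were those of Ogg1, Atm, Lig4, Msh6 and Fance. Their sequences are shown because these OCRs stood near the top of every library, and that of Fancg is shown beside them as one of the lower promoters. Each run is 101 bases of the mm10 genome centred on the median summit, printed 5′ to 3′ on the strand of the gene. Capitals mark the letters CCAAT (the NF-Y box), GGGCGG (the GC box bound by Sp proteins) and CCGGAAG (an ETS site), on either strand. The intervals are chr6:113326784-113326884 (plus strand) for Ogg1, chr9:53536772-53536872 (minus) for Atm, chr8:9976376-9976476 (minus) for Lig4, chr17:87974876-87974976 (plus) for Msh6, chr17:28313417-28313517 (plus) for Fance and chr4:43010383-43010483 (minus) for Fancg.
Ogg1: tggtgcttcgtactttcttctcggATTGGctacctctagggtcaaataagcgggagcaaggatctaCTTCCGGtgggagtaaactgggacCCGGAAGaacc
Atm: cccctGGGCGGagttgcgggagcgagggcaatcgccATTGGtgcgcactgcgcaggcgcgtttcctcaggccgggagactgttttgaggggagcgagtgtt
Lig4: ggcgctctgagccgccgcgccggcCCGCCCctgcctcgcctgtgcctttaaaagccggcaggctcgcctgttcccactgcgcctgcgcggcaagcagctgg
Msh6: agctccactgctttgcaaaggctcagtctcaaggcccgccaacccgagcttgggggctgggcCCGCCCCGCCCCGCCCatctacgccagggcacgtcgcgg
Fance: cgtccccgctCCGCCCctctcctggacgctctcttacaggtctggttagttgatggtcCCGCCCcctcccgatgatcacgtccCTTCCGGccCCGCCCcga
Fancg: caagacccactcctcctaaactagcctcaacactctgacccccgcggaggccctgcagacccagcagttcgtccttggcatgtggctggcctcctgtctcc
The Ogg1 run holds an NF-Y box and 2 ETS sites, the Atm run a GC box and an NF-Y box, and the Fance run 3 GC boxes and an ETS site. The Msh6 run holds GC boxes that overlap each other, the Lig4 run 1 GC box, and the Fancg run none of the motifs searched. Fancg does not stand for all lower promoters, since the same window held an ETS site and a GC box at Fancd2, the lowest of the 40 genes. At Fancc, Ercc4, Lig1 and Wrn, all among the higher promoters, it held none of the motifs. A link between motifs and accessibility was not tested.

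Every one of the 40 genes had an OCR within 1 kb of a start site in all 7 libraries, against 55.9% of all protein-coding genes. To place a promoter within its own library, the fold enrichment of its strongest OCR was expressed as a percentile among all OCRs of that library within 1 kb of any start site, so that 50 is the middle promoter OCR and a gene without an OCR has percentile 0. All 40 genes lay above 50 in 7 of 7 libraries and passed the exact sign-flip permutation test over libraries (two-sided, p = 0.0156, the smallest that 7 libraries can give, adjusted p = 0.0165 by Benjamini-Hochberg over all 21938 genes). Of all protein-coding genes, 46.6% passed above 50 and 49.7% passed below it, and none of the 40 passed below. Among the 12272 genes with a promoter OCR in all 7 libraries, 83.3% passed above 50, which is the nearer background for genes that all have such an OCR.

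The median percentile of the 40 genes was 85.5 ± 1.82 (SD over 7 libraries), with a range over libraries of 82.7 to 88.6. The median over the genes with a promoter OCR in all 7 libraries was 75.1 ± 1.90, and over all protein-coding genes 45.8 ± 4.32. The ranges over libraries of the first pair of medians did not overlap, since the higher of the background medians was 78.3. The percentile of a gene uses its strongest OCR over all its start sites, and the 40 genes had a median of 7 start sites against 5 for the genes with an OCR in all 7 libraries. The part of the number of start sites in the difference was not tested. When each gene was ranked only against the strongest promoter OCRs of other protein-coding genes, a reference added after the values were seen, the median was 71.1 ± 2.42, and 29 of the 40 genes passed above 50 (26.7% of all genes) and 7 passed below it (67.9%). Those 7 were Fancg, Fancd2, Brca2, Rad51c, Rad50, Atr and Chek1.

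**Figure D1:**
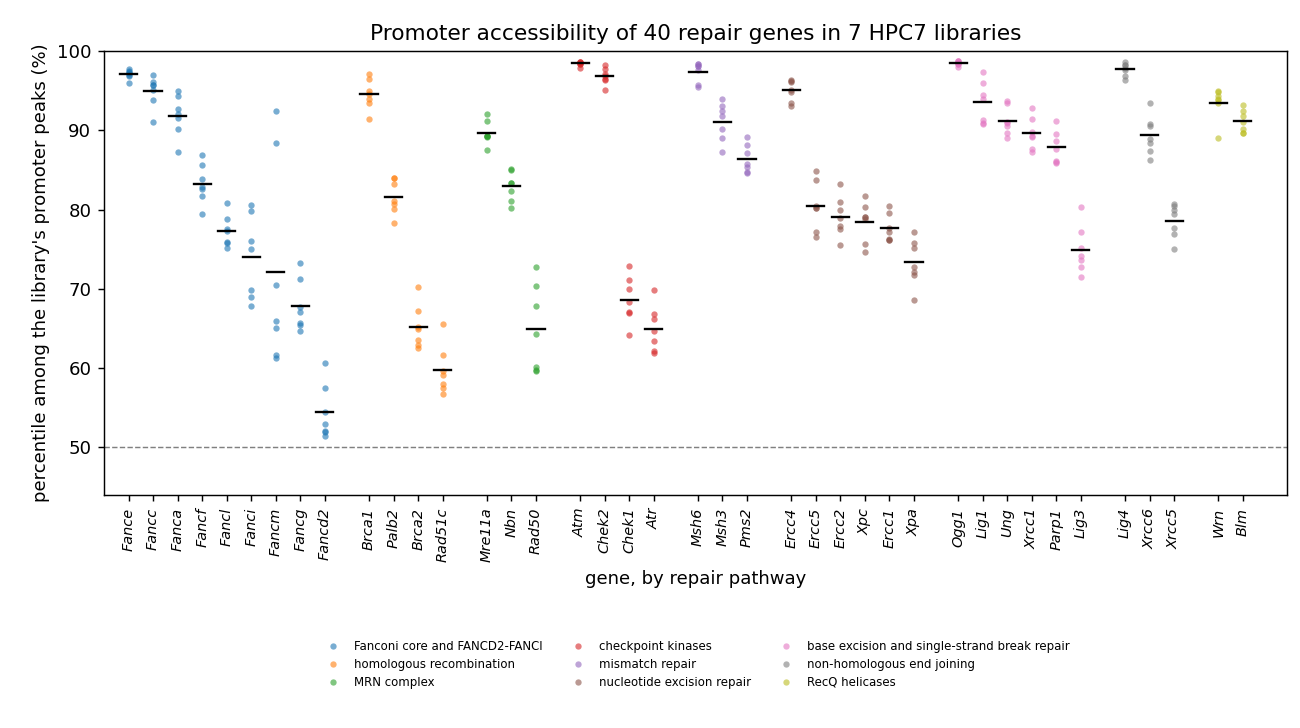
Percentile of the strongest promoter OCR of each gene among the promoter OCRs of the same library (y axis, percent, not starting at 0), with 1 point for each of the 7 libraries and a bar at their mean, grouped by repair pathway. Every point lies above the dashed line at 50, and Fancd2 (54.4 ± 3.43) is nearest to it.

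**Figure D2:**
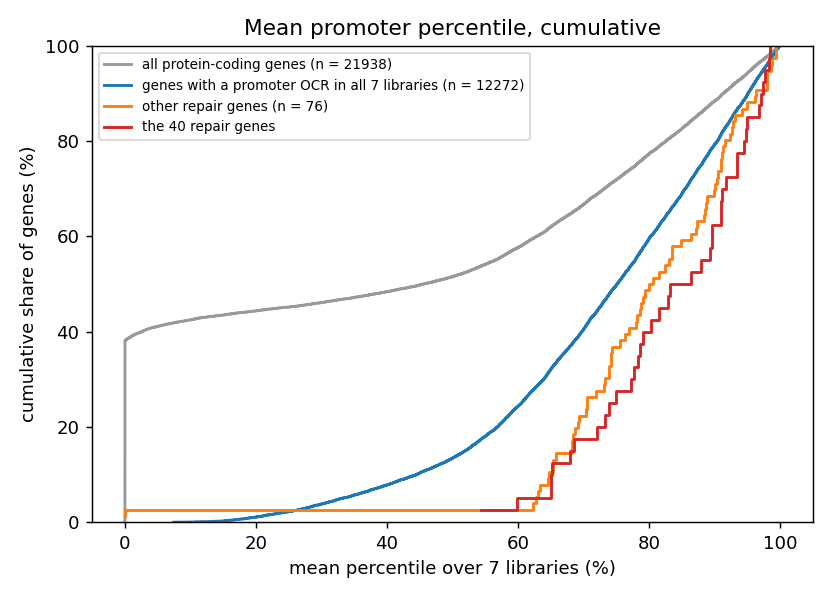
Cumulative share of genes (y axis, percent) by mean percentile over 7 libraries (x axis, percent) for the 40 repair genes, 76 other repair genes, the 12272 genes with a promoter OCR in all 7 libraries and all 21938 protein-coding genes. The curve of the 40 genes starts at 54.4, and the medians over libraries of the 4 sets are 85.5, 80.7, 75.1 and 45.8.

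A wider list of 76 other repair genes, chosen by pathway, was described in the same way. Of these, 74 carried a promoter OCR in each library and passed above 50, and their median percentile was 80.7 ± 2.13 with all 76 counted. Mlh3, a mismatch repair gene, and Neil2, a DNA glycosylase, were listed with no OCR within 1 kb of a start site in any library. High values were found for Mdc1, a mediator of the damage response at chromatin (99.5 ± 0.214), and Xrcc3, a gene of homologous recombination (98.8 ± 0.251). The lowest with an OCR was Eme1, a subunit of the MUS81 nuclease, at 62.3 ± 2.45.

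The order of the 40 genes ran from Ogg1 to Fancd2. In this order 35 of 39 neighbouring pairs differed by less than their spread between libraries. The 4 pairs beyond it, each higher in 7 of 7 libraries, were Chek2 over Ercc4, Pms2 over Fancf, Rad50 over Rad51c and Rad51c over Fancd2. For the other 35 pairs the order is not resolved. Of the 40 genes, 15 had a mean percentile of at least 90 and 7 a mean under 70.

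Among the genes of the Fanconi pathway itself, the promoters of the core complex ran from Fancg to Fance, with FANCD2 encoded by a gene below them. The median percentile of the 9 genes was 79.6 ± 4.03, and that of 8 other genes of this pathway 85.5 ± 1.78. Fance, which links the core complex to FANCD2, was highest at 97.1 ± 0.608. Its fold enrichment was 197, 173, 197, 243, 140, 163 and 205 in HPC7-1, HPC7-2, HPC7-4, HPC7-5, HPC7-6, HPC7-7 and HPC7-8, the order used for all lists of 7 values from here on. Even the lowest of these, in HPC7-6, stood at the 97.2 percentile of that library. Fancc and Fanca, also of the core complex, followed at 94.9 ± 1.96 and 91.8 ± 2.59. Fancf (83.3 ± 2.46), an adaptor of the complex, and Fancl (77.3 ± 1.96), its ubiquitin ligase, lay in the middle, and Fancg, a scaffold subunit, at 67.9 ± 3.20.

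The lowest of all 40 genes was Fancd2, whose protein is the target of the core complex. Its fold enrichments were 40.1, 28.7, 28.2, 38.3, 23.8, 27.7 and 33.6, and its percentiles 60.6, 52.1, 51.4, 54.5, 52.0, 52.9 and 57.5. All 7 are above 50, but 5 of them by less than 5.00 points, and the call does not hold under several other settings. With start sites within 500 bp Fancd2 passed below 50 (44.7 ± 3.40), as it did with transcripts tagged basic alone (45.0 ± 3.09). With OCRs of a −log10 q of at least 5 (51.2 ± 4.27), with the summit itself within 1 kb (51.2 ± 3.37) and with the same number of OCRs from every library (48.5 ± 2.17) it passed in neither direction. The summit lay 89.0 bp upstream of the nearest Fancd2 start and 25 bp from a start of Emc3, a divergent neighbour that encodes a subunit of a membrane protein insertase. FANCI, the partner of FANCD2, is encoded by a gene with a higher promoter percentile, 74.0 ± 5.18 (fold enrichments 103, 59.0, 67.9, 113, 50.5, 73.1 and 80.0). The Fanci values were higher than those of Fancd2 in each library.

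Fancm, which encodes the translocase that anchors the core complex to DNA, varied most between libraries. Its percentiles were 88.4, 65.9, 92.4, 61.6, 61.3, 65.1 and 70.5 (72.1 ± 12.9, coefficient of variation 17.8%), and the fold enrichments 134, 54.9, 160, 57.4, 37.2, 51.4 and 67.3. The high values of HPC7-1 and HPC7-4 do not belong to an OCR centred on Fancm. In both libraries the summit lay 1713 bp upstream of the Fancm start and 117 bp from the outer start of Fkbp3, a neighbour on the opposite strand whose start is 1596 bp away and which encodes a prolyl isomerase. In HPC7-1 a single OCR of 4237 bp covered both starts, while in HPC7-4 the OCR at Fkbp3 ended within 1 kb of the Fancm start and a separate OCR with a fold enrichment of 58.7 covered Fancm. In 6 libraries an OCR covered the Fancm start but not that of Fkbp3. Its fold enrichment was between 37.2 and 67.3 (54.5 ± 9.98). The strongest OCR covered the start of another gene in 7 of 7 libraries. The nearest such start to the median summit was that of Gm47870, 714 bp away. With the summit required within 1 kb, Fancm had an OCR in 6 libraries and passed in neither direction (53.1 ± 23.6). Under this rule HPC7-1 counted as without an OCR, although its OCR of 4237 bp covered the Fancm start, and this lowers the mean and widens the SD.

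**Figure D3:**
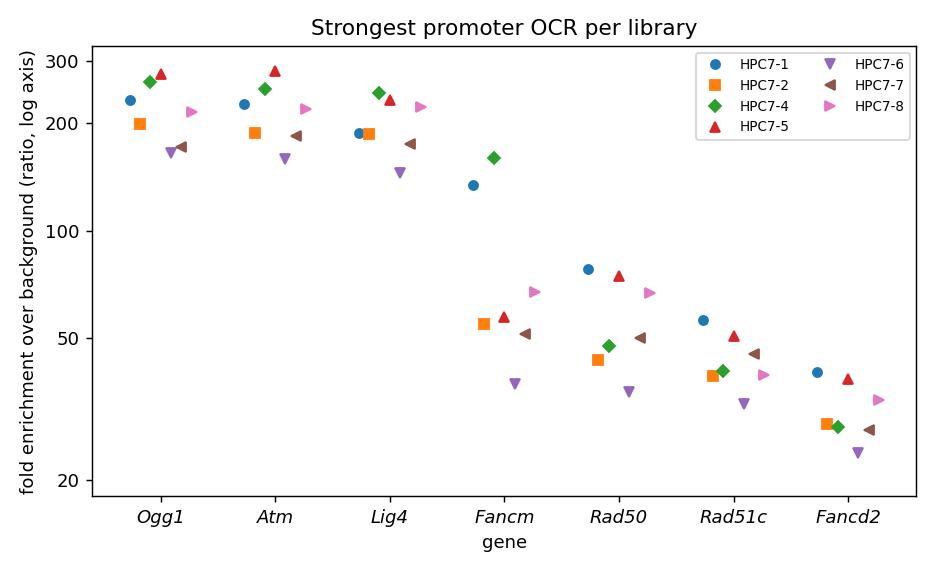
Fold enrichment (y axis, ratio to the background of the library, log scale) of the strongest OCR within 1 kb of a start site in each of the 7 libraries, for the 3 genes with the highest and the 3 with the lowest mean percentile and for Fancm, the most variable. Fancd2 lies between 23.8 and 40.1 and Ogg1 between 165 and 276, without overlap, and HPC7-1 and HPC7-4 stand apart for Fancm.

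The 4 genes of homologous recombination had a median percentile of 73.4 ± 2.28, the lowest of the 9 pathways in this list, with a wide spread within it. The 13 other genes of this pathway had a median of 81.7 ± 2.71, so the place of a pathway depends on the few genes listed for it. Brca1, which directs break ends to recombination, was highest (94.6 ± 1.92), with fold enrichments of 197, 153, 153, 226, 120, 129 and 162. Its summit lay 765 bp upstream of the nearest Brca1 start and 66 bp from a start of the divergent Nbr1, an autophagy receptor gene, so the OCR lies nearer to Nbr1. Palb2, which joins BRCA1 to BRCA2, was at 81.6 ± 2.18. Brca2, which acts in strand exchange, was at 65.2 ± 2.70 with fold enrichments from 43.0 to 66.7 (median 53.4). Rad51c, which acts with other recombination factors, was next to lowest of all 40 genes, at 59.8 ± 3.03, with fold enrichments of 56.3, 39.1, 40.5, 50.6, 32.7, 45.0 and 39.5. It passed in neither direction with start sites within 500 bp (50.8 ± 3.37) or with basic transcripts (50.9 ± 2.77).

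The MRN complex senses broken ends and trims them. Its 3 genes had a median of 82.9 ± 1.86, and here too 1 subunit stood low. Mre11a, the nuclease, had fold enrichments of 153, 119, 140, 171, 95.0, 103 and 131 (89.7 ± 1.49) and Nbn, the subunit that recruits ATM, was at 82.9 ± 1.86. Rad50, the ATPase that tethers the ends, was at 65.0 ± 5.42, with fold enrichments of 77.9, 43.4, 47.6, 74.8, 35.2, 49.9 and 67.0. After Fancm, Rad50 had the highest coefficient of variation of the percentile, 8.35%. Its promoter was higher in HPC7-1, HPC7-5 and HPC7-8 than in the other libraries.

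Among the 4 checkpoint kinases, Atm and Chek2 were higher than Atr and Chek1. Atm, the kinase activated by breaks, was at 98.4 ± 0.253 with fold enrichments of 227, 188, 250, 281, 159, 184 and 220, and Chek2, the kinase downstream of it, was at 96.8 ± 1.01. Atr, the kinase activated by stalled replication, was at 65.0 ± 2.82 with fold enrichments from 44.4 to 69.0, and Chek1, its downstream kinase, was at 68.6 ± 2.91 with 45.8 to 78.5. The fold enrichments of the 2 pairs did not overlap, since the lowest Chek2 value was 133. At Atm, Chek2 and Atr the strongest OCR covered the start of another gene in 7 of 7 libraries, and at Chek1 in none. The nearest other starts at the first 3 were those of Npat, Hscb and 1700065D16Rik, so accessibility there cannot be assigned to the kinase gene alone. In the wider list the values of the branches overlapped. On the ATM side, the chromatin factors ran from Rnf168 (73.9 ± 3.20) through Trp53bp1 (78.8 ± 4.11), Rnf8 (79.1 ± 3.00) and H2afx (96.2 ± 1.11) to Mdc1 (99.5 ± 0.214). On the ATR side, the sensor and adaptor genes ran from Rad9a (64.8 ± 3.07) through Clspn (68.2 ± 4.17), Rad1 (70.6 ± 4.57), Topbp1 (74.3 ± 2.56), Atrip (79.4 ± 1.79) and Hus1 (80.1 ± 3.60) to Rad17 (81.6 ± 3.68).

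The 3 mismatch repair genes of the list had a median of 91.3 ± 2.12. Of 5 other genes of this pathway, 4 had a promoter OCR in all 7 libraries, Exo1, a nuclease, was at 76.4 ± 3.23 and Mlh3 had no OCR. Msh6, which recognizes base mismatches, had fold enrichments of 182, 199, 239, 212, 157, 165 and 214 (97.4 ± 1.25). Msh3, which recognizes small loops, was at 91.1 ± 2.40 and Pms2, the endonuclease subunit, at 86.4 ± 1.78.

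In nucleotide excision repair, Ercc4, which with ERCC1 cuts the damaged strand on its 5′ side, stood above the other genes of the list. The 6 genes had a median of 78.4 ± 1.64 and 10 other genes of this pathway one of 83.4 ± 1.28. Its fold enrichments were 186, 164, 184, 225, 113, 127 and 171 (95.0 ± 1.33). Its partner Ercc1 was at 77.7 ± 1.73 (fold enrichments from 61.9 to 112). Ercc5, the nuclease on the 3′ side, was at 80.4 ± 3.01, Ercc2, a helicase of TFIIH, at 79.1 ± 2.51, Xpc, the damage sensor, at 78.4 ± 2.51 and Xpa, the scaffold, at 73.3 ± 2.91. Neighbouring pairs of the whole order from Ercc5 to Xpa differed by less than their spread between libraries, while Ercc5 itself was above Xpa in 7 of 7 libraries.

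The 6 genes of base excision and single-strand break repair had a median of 90.2 ± 1.51, whereas 15 other genes of this pathway had one of 75.3 ± 1.75, close to the 75.1 of all genes with a promoter OCR in all 7 libraries. Ogg1, the glycosylase for oxidized guanine, was the highest of all 40 genes, with fold enrichments of 232, 199, 262, 276, 165, 172 and 216 (98.5 ± 0.263). The start nearest to its summit is that of Gm15492, a divergent neighbour whose start is 87 bp away, and accessibility at such a shared OCR cannot be assigned to either gene. Lig1, the replicative ligase, was at 93.5 ± 2.62, Ung, the uracil glycosylase, at 91.2 ± 1.79, Xrcc1, the scaffold of single-strand break repair, at 89.6 ± 1.96 and Parp1, the break sensor, at 87.9 ± 2.04. Lig3, the ligase bound by XRCC1, was lower, at 75.0 ± 2.99.

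In non-homologous end joining, Lig4, the ligase that seals the ends, had fold enrichments of 188, 187, 244, 233, 145, 175 and 223 (97.7 ± 0.782). The 3 genes of this pathway had a median of 89.4 ± 2.42 and 7 others one of 90.6 ± 1.38. The Ku subunits differed, with Xrcc6, which encodes Ku70, at 89.4 ± 2.42 and Xrcc5, which encodes Ku80, at 78.6 ± 2.15. Their fold enrichments were 93.6 to 167 and 59.4 to 113. The summit at Xrcc6 lay 113 bp from a start of the divergent Desi1, and the OCR covered a Desi1 start in 7 of 7 libraries. The RecQ helicases Wrn and Blm, which unwind recombination intermediates, were at 93.5 ± 2.02 and 91.1 ± 1.38. The 6 other RecQ helicase and partner genes had a median of 79.3 ± 2.42, and each lay below both, from Recql5 (65.4 ± 4.23) to Rmi1 (88.7 ± 2.30). The fold enrichments of Wrn were 169, 144, 184, 156, 113, 139 and 161.

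The chromosome of a gene moved with its percentile in these libraries. The median percentile of genes with a promoter OCR was 80.5 on chromosome 1, 83.8 on chromosome 8 and 82.8 on chromosome 17, against 65.6 to 74.9 on the other autosomes and chromosome X. Ercc5, Parp1 and Xrcc5 lie on chromosome 1, Fanca, Lig4 and Wrn on chromosome 8, and Fance and Msh6 on chromosome 17. Ranked only against the strongest promoter OCRs of genes on the same chromosome, the median of the 40 genes was 68.6 ± 2.66, 28 passed above 50 (26.6% of all genes) and 8 below it (67.9%). Here too the shares of all genes include those without a promoter OCR. Xrcc5 (47.6 ± 2.40) was the gene that passed below 50 only with this reference and not with that of all chromosomes. The part of copy number in these differences was not tested.

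The median width of the promoter OCR over the 40 genes was 1848 ± 148 bp, against 1722 ± 195 bp over the genes with a promoter OCR in all 7 libraries, a difference within the spread between libraries. The widest were those of Lig4 (3281 ± 420 bp) and Wrn (3158 ± 314 bp), and the narrowest those of Fancl (1029 ± 120 bp) and Rad51c (1093 ± 187 bp). The summits were well placed, since their range over libraries had a median of 38.0 bp over the 40 genes. At 29 of the 40 genes the median summit lay within 100 bp of a start of the gene, and at 39 within 250 bp, the exception being Brca1. The summit of Lig1 lay 25689 bp inside the outermost annotated 5′ end, that of Xrcc6 28503 bp and that of Fancc 65998 bp, each at a start of a shorter annotated transcript.

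Divergent neighbours were common among the 40 genes. A gene was counted where another gene started on the opposite strand, head to head, within 1 kb, and this held for 22 of the 40 genes (55.0%), against 18.3% of all protein-coding genes and 27.9% of those with a promoter OCR in all 7 libraries. With protein-coding neighbours alone the count was 16 of 40, against 11.0% and 18.3%. Among the 76 other repair genes the shares were 50.0% and 39.5%. These shares are properties of the annotation, and they were described without a test. A neighbour was counted at any start of a gene. The median number of starts was 7 for the 40 genes, 3 for all protein-coding genes and 5 for those with a promoter OCR in all 7 libraries. The part of the number of starts in these shares was not tested.

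The gap between the divergent starts was 21 bp for Lig4 and Abhd13, 30 bp for Fancd2 and Emc3, 40 bp for Xpc and Lsm3, and 56 bp for Palb2 and Dctn5. It was 104 bp for Mre11a and Ankrd49, 117 bp for Pms2 and Aimp2, 194 bp for Brca1 and Nbr1, and 307 bp for Atm and Npat, a coactivator of histone genes. The strongest promoter OCR covered the start of another gene in all 7 libraries at 17 of the 40 genes and in no library at 22, among them Xrcc1, Lig1, Fanci, Brca2 and Ercc2, which have a divergent neighbour. The start nearest to the summit belonged to another gene for Fancd2, Brca1 and Ogg1. The 22 genes with a divergent neighbour had a median percentile of 87.1 ± 1.22 and the other 18 one of 82.7 ± 3.06. Over all genes with a promoter OCR in all 7 libraries the medians were 82.1 ± 1.35 with and 72.0 ± 2.20 without a divergent neighbour, so the 40 genes stood above the background in both classes.

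The sequence within 100 bp of the summits was compared with that at the 12272 genes with a promoter OCR in all 7 libraries, on both strands and in windows of 201 bp. The median GC content was 65.2% in both sets, and the ratio of observed to expected CpG was 0.920 at the 40 genes and 0.824 at all. CCAAT was found at 18 of the 40 genes (45.0%), against 30.7% of all, among them Atm, Blm, Brca1, Fanca and Ogg1. CCGGAAG was found at 10 (25.0%, against 15.4%), among them Fancd2, Fance, Lig4 and Ogg1, and GGGCGG at 26 (65.0%, against 56.8%). TTTNGCGC, an E2F site, was found at Chek2 and Rad51c (5.00%, against 1.78%), GCGCATGCG, the NRF1 site, at Fancl and Fancm (5.00%, against 2.63%) and TGACGTCA, the cAMP response element, at Brca2 and Rad51c (5.00%, against 2.35%). ATGGCGG, the YY1 site, was found at 2 genes (5.00%, against 6.77%), and neither ACTACAATT, a ZNF143 core (0.424% of all), nor TTTGAA, a cell cycle element (5.18% of all), was found at any. A match is a description of letters in this window, the motifs overlap in places, and the counts carry no test.

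Away from start sites, the bodies of the 40 genes and 10 kb on either side held between 116 and 218 OCRs in a library, most in HPC7-1 (218) and HPC7-8 (188). Their density had a median of 0.481 ± 0.153 per 10 kb over the 40 genes, against 0.432 ± 0.0938 over all protein-coding genes and 0.732 ± 0.150 over those with a promoter OCR in all 7 libraries. Against the genes with a promoter OCR in all 7 libraries, the 40 genes were lower by more than either SD. The difference from all protein-coding genes is within the spread between libraries. With the same number of OCRs from every library, the densities of the 40 genes and of all protein-coding genes were 0.363 ± 0.0220 and 0.332, a difference above the spread. This difference also depends on the flank, since without flanks the density was 0.444 over the 40 genes and 0.0585 over all protein-coding genes. Both settings are given only against all protein-coding genes. OCRs that overlapped between libraries by at least 1 bp were merged into 246, of which 84 were present in all 7 libraries, 49 in a gene body and 35 in a flank. A further 63 were present in 1 library alone, 44 of them in HPC7-1, the library with the highest background.

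Fancc, Blm and Msh3 held the most. Fancc had 21, 13, 15, 13, 12, 14 and 19 OCRs in the 7 libraries, Blm 15, 14, 11, 15, 12, 12 and 17, and Msh3 12, 5, 10, 7, 7, 10 and 12. Fancc is long, and per 10 kb it stood at 0.658, below Msh6 (1.75), Ercc1 (1.53), Fance (1.38) and Blm (1.37). Ercc2 and Atm had the fewest, with means of 0.143 and 0.429.

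**Figure D4:**
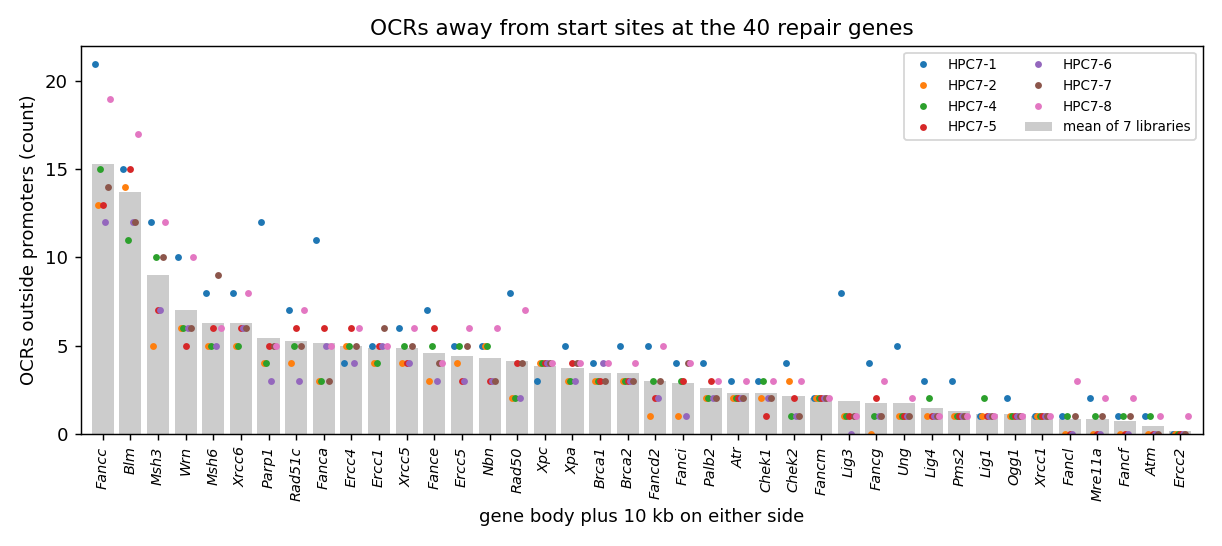
Number of OCRs (y axis, count) in the gene body and 10 kb on either side that lie over 1 kb from every start site, for each of the 40 genes, with 1 point for each library and a bar at the mean of 7 libraries. Fancc (15.3), Blm (13.7) and Msh3 (9) have the highest means, and HPC7-1 is the highest point for many genes.

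The strongest of these OCRs lay in an intron of Blm, at chr7:80494677-80496063, 39640 bp from the outer 5′ end of the gene. Its fold enrichment was 182, 173, 189, 224, 129, 160 and 184, and in 7 of 7 libraries it exceeded that of the Blm promoter (161, 120, 150, 181, 96.4, 113 and 146). It stood at the 99.9 percentile of OCRs outside promoters. Its summit sequence is given because this was the most accessible site outside a promoter at any of the 40 genes, and it covers chr7:80495429-80495529 of mm10 on the plus strand.
Blm intron: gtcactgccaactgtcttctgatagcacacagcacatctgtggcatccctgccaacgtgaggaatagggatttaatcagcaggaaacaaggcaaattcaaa
No capitals appear because none of 6 motifs of hematopoietic and insulator factors was found in this stretch, namely the GATA site AGATAA, the RUNX site TGTGGT, the ETS site GAGGAAG, the E-box CAGCTG, the AP-1 site TGAGTCA and AGGGGGC, a part of the CTCF site. An AP-1 match lay within 100 bp of the summit.

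Other strong OCRs lay in the flanks of Brca1, at chr11:101484484-101486651 (131 ± 30.4), and of Ercc4, at chr16:13157190-13160797 (123 ± 29.1), outside any annotated gene. An OCR beyond the 3′ end of Rad51c, at chr11:87368040-87368877, had a fold enrichment of 49.4 ± 13.5 and was above the Rad51c promoter (43.4 ± 7.93) in 5 of 7 libraries. An intronic OCR of Ogg1 at chr6:113330462-113331089 stood at 48.7 ± 12.3, and one upstream of Msh6 at chr17:87971496-87972618 at 62.2 ± 9.77. Of the 84 OCRs in all 7 libraries, those in Blm and beside Rad51c were the only ones whose mean was above that of the promoter of the gene. The median over the 84 was 8.97, so most were far weaker than the promoters.

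The 6 motifs were found at these 84 OCRs about as often as at 49490 OCRs over 1 kb from every start site that were present in HPC7-1 and overlapped in all the other libraries. AGATAA was found at 16.7% against 17.2%, TGTGGT at 26.2% against 30.5% and GAGGAAG at 19.0% against 17.9%. CAGCTG was found at 11.9% against 15.2%, TGAGTCA at 8.33% against 10.5% and AGGGGGC at 4.76% against 6.84%. These shares are near the background, and no motif sets these OCRs apart.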

How the data were processed

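Bulk ATAC-seq peak lists of 7 libraries of 1 cell line were used. The authors trimmed reads, mapped them with BWA to mm10 and ran MACS2 on every library by itself; versions and options are not given in the sources used here. The deposited lists give for each OCR a fold enrichment (a ratio of summit reads to background), a −log10 p and −log10 q, a score and a summit offset. In every library 100% of the deposited fold ratios were whole multiples of 1 step (tolerance 0.0500), which gave summit reads and the background; total read numbers were not used. OCR names start with VD in 3 libraries and with EtOH in 4, which the labels do not explain, so these prefixes were not treated as groups.

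The strongest OCR overlapping 1 kb around any GENCODE M21 start (1.00 bp minimum) was taken per gene and library, and its mid-rank percentile computed. Percentiles minus 50 were tested by an exact two-sided sign-flip test over 128 patterns with Benjamini-Hochberg adjustment over 21938 genes, called where the adjusted p was under 0.05. The functions were tested on simulated data. Values are means ± SD over libraries; summit reads are not independent molecules, so their counting error is a lower limit. The members and the lists were chosen with earlier results of these data known, and the 6 motifs searched outside promoters after the OCRs were seen. Named were the 3 highest and 3 lowest genes, the highest of each pathway, genes lacking a promoter OCR in a library, the 3 with most other OCRs and the 2 most variable. Other names were chosen after their values were seen. Alternatives were −log10 q of at least 5, windows of 500 bp and 3 kb, summits, equal OCR numbers, basic transcripts, other references, flanks and distances, and each library left out. The tools were pandas 2.3.3 and numpy 2.4.6 under Python 3.11.15, with pysam 0.24.0, scipy 1.17.1 and matplotlib 3.10.9. The single-nucleus data were not used here. Some genes of the wider repair list and some neighbouring genes are not reported here.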

Additional observations from a re-analysis of the deposited data

Results flagged for a closer look

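Of 44 measures tested for a library that stands apart from the other 6, 2 were picked out, about as many as chance gives (about 1 in 20 groups, or 5.00%). The promoter percentile of Atm was 97.9 in HPC7-2, and the next lowest library was at 98.4. The promoter percentile of Wrn was 89.0 in HPC7-5, and the next lowest library was at 93.4. Neither gene changed its call when that library was left out.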

How the results depend on the processing

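No paired analysis was possible because the series has 1 group of libraries and no comparison between groups. Of 86 alternative values, 10 moved by more than the spread between libraries or, for counts, by more than 1.5 times. The median percentile of the 40 genes moved from 85.5 to 82.0 with start sites within 500 bp (33.9 over all genes), 92.6 within 3.00 kb (66.9), 83.6 with the same number of OCRs from every library (38.8), 81.9 with basic transcripts (32.4), 68.6 with the chromosome of the gene as reference (14.7) and 71.1 with the strongest promoter OCRs of protein-coding genes as reference (14.7), the last added after the values were seen. The number of the 40 genes passing above 50 fell from 40 to 28 with the chromosome reference and to 29 with the protein-coding reference, while the share of all genes fell from 46.6% to 26.6% and 26.7%. The number of the 40 genes passing below 50 moved from 0 (49.7% of all genes) to 1 within 500 bp (54.7%) and to 1 with basic transcripts (55.3%), Fancd2 in both, to 8 (67.9%) with the chromosome reference and to 7 with the protein-coding reference (67.9%). The medians and shares over all genes include genes without a promoter OCR, set to percentile 0. The cause of the shifts was not tested. Leaving out each library in turn gave medians of 85.0 to 86.0, widths of 1800 to 1871 bp, densities of other OCRs of 0.438 to 0.501 per 10 kb, and 40 genes above 50 each time. With 6 libraries the smallest p is 0.0312. The libraries named VD and those named EtOH, also added later, gave medians of 86.2 and 85.0. Divergent neighbours numbered 20 within 500 bp (16.3% of all genes) and 26 within 3.00 kb (23.2%). The number of OCRs outside promoters differed between libraries, from 116 to 218, and the part of depth in this was not tested, since total read numbers were not used. The lowest promoter summit of the 40 genes held 151 reads.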
